A study of Mus musculus with 24 samples.

Results

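The genes Itih1, Itih2, Itih3 and Itih4 encode heavy chains of the inter-alpha-trypsin inhibitor family and were followed in liver. They were taken by symbol from the annotation of the array, where each had 1 spot, and all 4 of the 4 listed genes were found among 8726 genes with a named spot. The group was chosen from its tumor over PBS log2 ratios, in which Itih3 stood high, so these ratios are a description and no p-value is given for them. All 4 probes passed the filter on measured pairs and belonged to the 2062 probes that were fitted, with n = 3 or 4 pairs at each time.

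Heavy chains are secreted by hepatocytes and circulate in plasma. Most are bound through a chondroitin sulfate chain to bikunin, a small protease inhibitor cut from the Ambp precursor. The products of Itih1 and Itih2 share a bikunin molecule in inter-alpha-inhibitor, and the product of Itih3 joins bikunin in pre-alpha-inhibitor. The Itih4 product carries no bikunin and is cut by plasma kallikrein. The protein TSG-6, made from Tnfaip6, moves heavy chains from these complexes onto hyaluronan, which stabilises the matrix of inflamed tissue. In human hepatoma cells the genes for the last pair of chains respond to interleukin-6 (IL-6) as part of the acute phase response.

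Livers came from male C57Bl/6 mice, 8 weeks old, that had received 1000000 LL/2(LLC1) lung tumor cells under the skin in 300 µl of phosphate-buffered saline (PBS), or PBS without cells. LL/2(LLC1) is a mouse Lewis lung carcinoma line derived from the same strain, and the livers were not the site of injection. Tissue was taken at 18, 72 or 192 h. RNA of a tumor liver and of a PBS liver was hybridised together on a printed 2-colour oligonucleotide array and again with the dyes exchanged, which gave 4 pairs per time, 12 pairs and 24 arrays. The labels name the pairs biological replicates but do not tell if a sample was 1 animal or several, so that p-values measure only the spread between these samples. All liver cell types were in the tissue, so fewer cells of a type and less RNA per cell cannot be told apart.

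The arrays were of uneven depth, with 1136 to 9477 spots measured per array and 1087 to 8077 in both orientations of a pair. Log2 ratios of the exchanged arrays of a pair correlated between -0.29 and 0.52 across probes, which are not independent replicates. That correlation was below 0 in most pairs. The precision is limited by the number of pairs and by the differences between exchanged arrays, which had a median size of 0.39 log2 units over probes. The standard error (SE) of a fitted probe had a median of 0.15 at 18 h. The 4 hepatocyte markers with a spot (Ahsg, Tdo2, Pck1 and Hnf4a) had median totals between 2.74 and 20.7 times their own background. For the 6 lymphocyte markers with a spot the medians lay between 1.39 and 1.53 times background.

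Itih4, Itih3 and Itih1 lie next to each other in this order on chromosome 14 in the RefSeq annotation of GRCm38.p6, and Itih2 lies on chromosome 2 between Kin and Itih5. The windows from 250 bases before to 50 after the gene start are shown for Itih3, whose ratios stood apart, and for Itih4, its neighbour. Both come from RefSeq on GRCm38.p6, at chr14:30923538-30923837 on the minus strand for Itih3 and chr14:30886226-30886525 on the plus strand for Itih4. They are written 5′ to 3′ along the gene, and capitals mark motif matches.
Itih3: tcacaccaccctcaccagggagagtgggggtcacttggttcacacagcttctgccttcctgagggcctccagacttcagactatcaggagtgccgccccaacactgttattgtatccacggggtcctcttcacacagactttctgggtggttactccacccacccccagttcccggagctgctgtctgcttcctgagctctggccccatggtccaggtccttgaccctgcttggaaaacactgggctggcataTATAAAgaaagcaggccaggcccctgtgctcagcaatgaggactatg
Itih4: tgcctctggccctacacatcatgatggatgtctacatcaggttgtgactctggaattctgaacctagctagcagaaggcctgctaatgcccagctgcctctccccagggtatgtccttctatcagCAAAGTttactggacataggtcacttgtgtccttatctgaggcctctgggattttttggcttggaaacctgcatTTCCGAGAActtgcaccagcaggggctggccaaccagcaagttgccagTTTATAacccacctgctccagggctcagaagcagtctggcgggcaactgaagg

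A set of 6 motifs was searched on both strands of the windows of all 4 genes, and all 4 RefSeq windows were found. The STAT palindrome TTCNNNGAA was present in 8.3% of 32851 windows of the same length, and the IL-6 response element core CTGGGAA in 11.1%. The C/EBP core TTNNGCAA was present in 10.8%, the HNF4 core CAAAGT in 14.4%, the HNF1 core GTTAAT in 7.1% and the TATA box TATAAA in 13.6%. In Itih3 the only match was TATAAA, beginning at base 4 of the annotated gene. Itih4 held the STAT palindrome, beginning 51 bases before the gene start, CAAAGT beginning 125 bases before it and a TATA box letter run on the other strand. Itih1 held 1 match to the HNF1 core, 27 bases before its start. Itih2 held the C/EBP core 33 bases and CAAAGT 28 bases before its start, and these overlap each other. A match is a run of letters, and nothing was measured about the factors at these sites.

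At 18 h Itih3 had the highest ratio of the 4 heavy chains in every pair, and the other chains lay on both sides of 0. Log2 ratios are given as tumor over PBS. Their direction assumes that channel A held Cy3, since no file or label names its dye, and with the other assignment all signs would be opposite. Itih3 had log2 ratios of 0.48, 0.26, 0.71 and 0.62 in pairs 1 to 4, with a mean of 0.52 ± 0.19 (SD, n = 4), or 1.43-fold. All 4 were above 0, and the lowest was pair 2. Of the 2062 fitted probes 12% were above 0 in every measured pair at this time, and 0.921% had a mean of 0.5 or more. Itih3 ranked 17 from the highest. Because the genes were chosen on this contrast, nothing is read from these shares.

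Itih1 had 0.24, -0.35, 0.44 and 0.07 in pairs 1 to 4 at 18 h, a mean of 0.10 ± 0.34 (SD, n = 4). For Itih2 the ratios were 0.17, -0.52, 0.05 and 0.05, a mean of -0.06 ± 0.31. For Itih4 they were 0.09, -0.34, 0.28 and -0.09, a mean of -0.016 ± 0.26. Pair 2 was the lowest for each of the 4 genes. Itih3 exceeded the mean of the other members by 0.31 to 0.66 log2 units, 0.51 ± 0.16 on average (SD, n = 4).

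At 72 h no member had a mean away from 0 by more than its spread between pairs. Itih3 had 0.67, 0.04, -0.05 and -0.67 in pairs 1 to 4, which average to -0.0046 ± 0.55 (SD, n = 4). Pair 1 was as high as the ratios at 18 h, pairs 2 and 3 were close to 0, and pair 4 was as far below it as pair 1 was above. The same order, highest in pair 1 and lowest in pair 4, held for the other members. Itih1 had 0.36, 0.19 and -0.51 in pairs 1, 2 and 4 and no ratio in pair 3, with a mean of 0.013 ± 0.46 (SD, n = 3). Itih2 had 0.46, 0.04 and -0.12 in the same pairs, a mean of 0.13 ± 0.30. Itih4 had 0.62, -0.11, -0.11 and -0.36, a mean of 0.0070 ± 0.42 (SD, n = 4). None of the 4 members was above 0 in every measured pair, against 7.27% of the fitted probes. Itih3 was the highest member in 2 of 4 pairs and differed from the mean of the others by -0.02 ± 0.23.

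At 192 h Itih3 was again the highest member in each of the 4 pairs. Its ratios were 0.66, 0.60, 0.45 and 1.14, a mean of 0.71 ± 0.30 (SD, n = 4), or 1.64-fold, and pair 4 was the highest. It ranked 2 among the 2062 fitted probes, of which 4.85% were above 0 in every measured pair and 0.194% had a mean of 0.5 or more. Itih1 had 0.40, -0.03, 0.07 and 0.13, a mean of 0.14 ± 0.18. Itih2 had 0.13, 0.24 and 0.07 in pairs 1, 2 and 4, a mean of 0.15 ± 0.085 (SD, n = 3), and was thus above 0 in all 3. Itih4 had -0.29, 0.22, -0.05 and 0.89, a mean of 0.19 ± 0.51, and its mean turns on pair 4. Itih3 exceeded the mean of the others by 0.44 to 0.77 log2 units, 0.56 ± 0.15 on average.

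**Figure D1:**
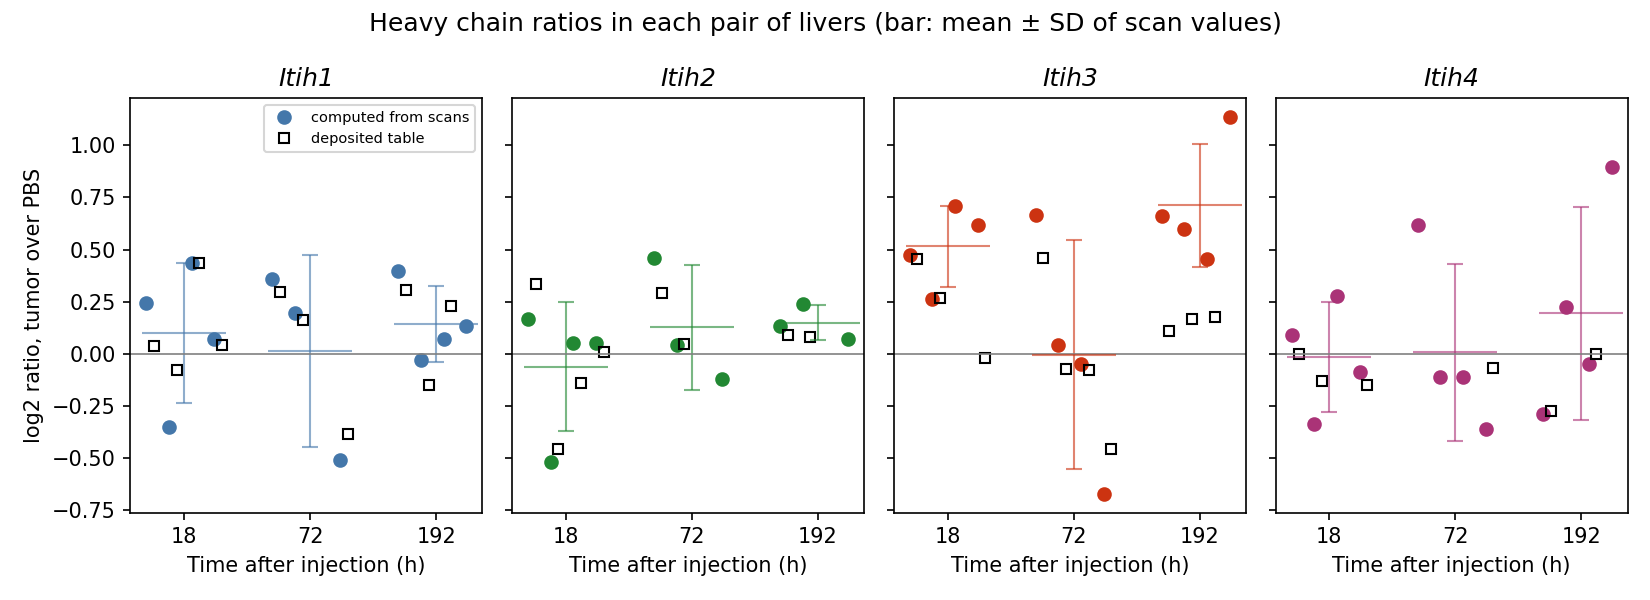
Log2 ratio of tumor over PBS liver for each heavy chain gene at 18, 72 and 192 h. Filled circles are ratios computed from the scans, with 1 per pair in the order of pair numbers, open squares are the ratios of the deposited table for the same pair, and bars give the mean ± SD of the circles. The Itih3 circles at 18 and 192 h all lie above 0, while its squares at 192 h lie between 0.11 and 0.18.

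Only Itih3 among the members was above 0 in every pair at both 18 and 192 h, a pattern that 0.679% of the fitted probes showed. The genes were chosen on these ratios, so nothing is read from this share or from the rank and shares at 192 h. Over the 3 times its mean ratio was 0.41 ± 0.098 (SE of the fit), with 10 of 12 pairs above 0. The same mean was 0.08 for Itih1, 0.07 for Itih2 and 0.06 for Itih4, each with an SE of 0.086 to 0.10. The Itih3 ratio at 192 h exceeded that at 18 h by 0.20 ± 0.24 (SE), a difference smaller than its error. With limma 0 of the 2062 probes passed an adjusted p of 0.05 at 18, 72 or 192 h, for the mean of the times or for 192 against 18 h, which is 0% in each of the 5 comparisons. At an unadjusted p under 0.05 there were 136, 104 and 63 probes at the 3 times, 201 for the mean and 47 for the difference. The smallest adjusted p over all probes was 0.168, 0.796 and 0.999 at 18, 72 and 192 h.

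The authors' own ratios gave smaller values for Itih3. In the deposited table, whose scale, centring and direction are not stated but which runs the same way as the scan ratios, Itih3 had 0.45, 0.27 and -0.02 in pairs 1, 2 and 4 at 18 h, a mean of 0.23 ± 0.24 (SD, n = 3). At 72 h it had 0.46, -0.07, -0.08 and -0.46, against 0.67, 0.04, -0.05 and -0.67 from the scans. At 192 h it had 0.11, 0.17 and 0.18 in pairs 1 to 3, a mean of 0.15 ± 0.038 (SD, n = 3), against 0.45 to 0.66 from the scans in the same pairs. Itih3 was thus above 0 in 5 of 6 pairs at 18 and 192 h in that table, and its mean at 192 h was close to the 0.13 of Itih1 there. The Itih3 mean over the 3 times was 0.11 there, against 0.41 from the scans, with 6 of 10 pairs above 0. No pair value was listed for pair 3 at 18 h or pair 4 at 192 h, and these are the pairs with the highest Itih3 ratio from the scans at each time. In both, the Itih3 spot was saturated in every scan of the array with the tumor liver in Cy5, and that array has no deposited value. Without the arrays saturated in every scan, a choice made after seeing the data, the scan ratios of Itih3 averaged 0.45 (n = 3) at 18 h and 0.57 (n = 3) at 192 h where both arrays of a pair were needed. They averaged 0.48 and 0.73 (n = 4 each) where the other array of the pair was kept after removal of the mean dye effect. For the other members the deposited means at 18, 72 and 192 h were 0.11, 0.023 and 0.13 for Itih1 and -0.07, 0.17 and 0.08 for Itih2. Itih4 had a deposited ratio in 6 pairs and was above 0 in 0 of them. The pairs without one include those with its highest scan ratios. These were 0.28 in pair 3 at 18 h, 0.62 in pair 1 at 72 h, and 0.22 and 0.89 in pairs 2 and 4 at 192 h. Pairs 2 and 3 at 72 h, at -0.11 each from the scans, had no deposited value either.

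Each ratio is the mean of 2 arrays with exchanged dyes, and the arrays of a pair differed more for some members than for others. Itih2 was above 0 on 11 of 12 arrays with the tumor liver in Cy3 and on 0 of 10 with it in Cy5. Its ratio was lower with the tumor liver in Cy5 in 10 of 10 pairs, with a mean difference of -1.18 ± 0.58 log2 units (SD over pairs). Itih1 was above 0 on 10 of 12 arrays of the first kind and on 2 of 11 of the second, and was lower with the tumor liver in Cy5 in 11 of 11 pairs, with a mean difference of -0.69. Over all fitted probes the median difference was 0.18, and 6.45% were below 0 in every pair. In the deposited table the difference was also below 0 in all pairs with both arrays, 10 of 10 for Itih1 and 8 of 8 for Itih2. The arrays of a pair lay on the same side of 0 in 1 of 10 pairs for Itih2 and in 4 of 11 for Itih1, so most pair means of these genes average values of opposite sign.

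Over all 12 pairs Itih3 and Itih4 did not split by dye in this way. Their ratios were lower with the tumor liver in Cy5 in 7 and 6 pairs. At 18 h, though, the mean of Itih3 did differ by dye, as given below. The Itih3 arrays of a pair had the same sign in 9 of 12 pairs, and the Itih4 arrays in 7 of 12. At 192 h all 8 Itih3 arrays were above 0, with a mean of 0.75 ± 0.45 with the tumor liver in Cy3 and 0.67 ± 0.19 with it in Cy5 (SD, n = 4 each). At 18 h the 4 arrays with the tumor liver in Cy3 were all above 0, at 0.88 ± 0.42, but only 2 of 4 with it in Cy5 were, at 0.15 ± 0.51. The exceptions were pair 2, with 0.83 against -0.31, and pair 4, with 1.49 against -0.26. In both of these pairs the higher value came from a single scan, the 1 scan of that array in which the spot gave a signal in both channels. The ratio at 18 h in these pairs is thus less firm than in pair 1, where the arrays differed by 0.090. In pair 3 they differed by 0.024, but the spot was saturated in every scan with the tumor liver in Cy5. With the tumor liver in Cy3 it had only 1 unsaturated scan, so pair 3 is limited as well.

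**Figure D2:**
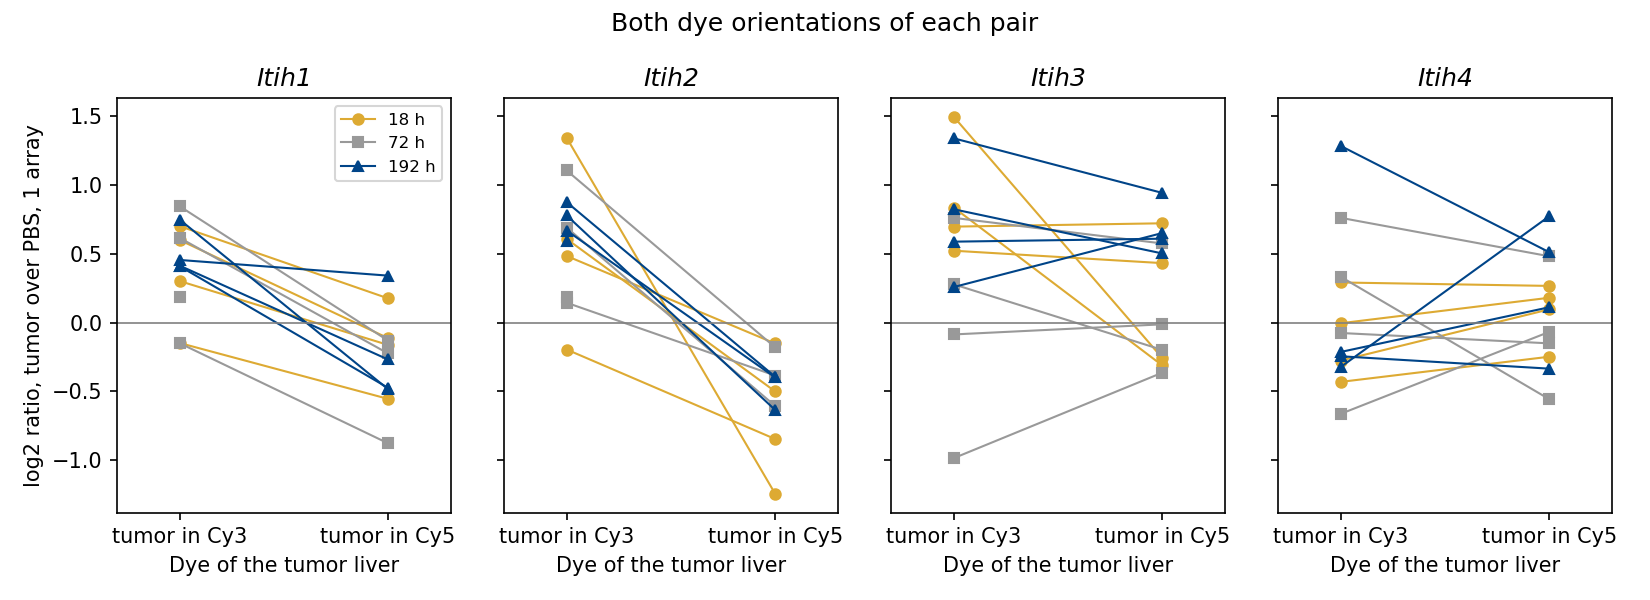
Log2 ratio of tumor over PBS liver on single arrays, with the tumor liver in Cy3 at left and in Cy5 at right of each panel, for each heavy chain gene. A line joins the 2 arrays of a pair, and colour and symbol give the time. The lines of Itih1 and Itih2 all fall, with mean differences of -0.69 and -1.18, while those of Itih3 at 192 h stay above 0 at both ends.

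The levels of the members in PBS livers, the livers in the denominator of the ratios above, were compared between times. A level starts from the mean log2 intensity of both channels in the dimmest scan, after arrays were scaled to the same distribution. The log2 ratio of the array was then split evenly, added for tumor livers and subtracted for PBS livers. PBS levels and their tests thus carry part of the ratios on which the genes were chosen and are not independent of them. Levels of different genes are not compared. A spot saturated in every scan may give a level that is too low. On arrays with the tumor liver in Cy3, this touches Itih1 and Itih4 in pairs 1 and 2 at 72 h. On arrays with the tumor liver in Cy5, it touches all 4 genes in pair 4 at 192 h. Arrays of this second kind are also touched for Itih3 and Itih4 in pair 3 at 18 h and for Itih2 in pair 4 at 72 h. Itih3 was highest at 72 h, at 20.1 ± 0.84 (SD, n = 4), followed by 18 h, at 19.6 ± 2.3 (n = 3), and 192 h, at 19.3 ± 0.51 (n = 4). Neighbours in this order differed by less than the SD of either group. In tumor livers the Itih3 level was 20.1 ± 2.6 at 18 h, 20.1 ± 1.1 at 72 h and 20.03 ± 0.66 at 192 h, so the means of the 3 times were nearly equal there. For Itih1 the PBS level was 20.6 ± 1.7 at 72 h (n = 3), 19.4 ± 0.64 at 18 h and 18.4 ± 0.31 at 192 h, and its last 2 times in this order differed by more than the SD of either. The Itih2 PBS level was 18.7 ± 1.1 at 18 h, 18.2 ± 1.4 at 192 h and 17.9 ± 0.67 at 72 h, and that of Itih4 was 20.2 ± 0.87 at 18 h, 19.8 ± 0.57 at 72 h and 19.3 ± 1.6 at 192 h.

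The number of pairs allowed no exact permutation test of these differences to pass after adjustment, since 0.0623 is the smallest adjusted p that the 12 tests could give. Of 12 two-sided exact tests, 3 for each gene, the smallest p was 0.0571, for Itih1 between 18 and 192 h and between 72 and 192 h, with an adjusted p of 0.343 for both. The smallest p possible is 0.0286 for the first of these, with 4 against 4 samples, and 0.0571 for the second, with 3 against 4. For Itih3 the smallest exact permutation p was 0.171, between 72 and 192 h. The times lie on different arrays, so that time and array cannot be told apart. Before scaling, brightness itself varied between the exchanged arrays of 1 pair, which hold the same RNA, by up to 9.65-fold for Itih3 and up to 41.9-fold for Itih4. These folds include differences in brightness between whole arrays, which the scaling of the levels addresses.

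The members' ratios were correlated across pairs as a description, over pairs that share arrays and normalization. Itih3 and Itih4 had a Pearson r of 0.70 and a Spearman rho of 0.77 over 12 pairs, and r was 0.47 without the 2 pairs farthest from the Itih3 median. In the other comparisons the farthest pairs were counted from the median of the gene named first, so different pairs could be left out. For Itih1 and Itih3 the r of 0.68 (rho 0.62, 11 pairs) was 0.07 without the 2 farthest pairs and thus rests on them, and so does that of Itih1 and Itih2, at 0.67 and 0.12. Itih2 and Itih3 had an r of 0.41 over 10 pairs, and 0.64 without the 2 farthest. For Itih1 and Itih4 r was 0.46 over 11 pairs and 0.0060 without the 2 farthest, and for Itih2 and Itih4 it was 0.57 over 10 pairs and 0.31. Among 431 other named probes with a ratio in all 12 pairs, the median r with Itih3 was 0.18, and Itih4 ranked 10. The 5 genes with the highest r were Sh2b1, an adaptor of receptor tyrosine kinases (0.84), Slx4ip (0.81), Lrg1, a secreted acute phase glycoprotein (0.80), Actb, cytoplasmic beta-actin (0.75), and Upk2, a uroplakin (0.74). Lrg1 had mean ratios of 0.34, -0.15 and 0.43 at the 3 times, of which the last rests on pair 4, while those of Sh2b1 were between -0.14 and 0.07. In the deposited ratios the r of these 5 with Itih3 was 0.18, 0.51, 0.65, 0.37 and 0.41, over 9 or 10 pairs.

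Genes that build or use the heavy chain complexes were sparsely measured. Of 35 listed, 15 had a named spot and 7 were fitted, of which 0 passed in either direction at any time, and Ambp had no named spot here. Their median log2 ratio was -0.14, -0.0084 and -0.04 at 18, 72 and 192 h, against -0.0044, -0.05 and -0.02 over all fitted probes. Ugdh, which makes the UDP-glucuronate used for hyaluronan and chondroitin sulfate, had the lowest ratio, -0.85 ± 0.25 (SE, n = 4) at 18 h, with 0 of 4 pairs above 0. Pair 1 alone was at -2.08, and without it the mean was -0.44. The Ugdh ratio was -0.22 ± 0.28 at 72 h and -0.08 ± 0.25 at 192 h. Has3, a hyaluronan synthase, had 0.22, 0.33 and -0.14 at the 3 times, with 3 of 3 pairs above 0 at 72 h. The small proteoglycan Dcn had -0.26 at 18 h, with 0 of 4 pairs above 0, and Bgn had 0.07. Habp4, a hyaluronan-binding protein, had 0.25 at 18 h with 1 of 3 pairs above 0. Chst11, a chondroitin sulfotransferase, had -0.14 and Pcsk6, a proprotein convertase, -0.17 at 18 h. Tnfaip6, which carries heavy chains to hyaluronan, was measured in both orientations in 3 of 12 pairs and was not fitted, and Has1, Hyal1, Hmmr, Ptx3, Cemip, Cemip2 and Csgalnact2 were not fitted either.

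Few genes around the members were measured. The genes directly beside them, Mustn1, Nek4, Kin and Itih5, were not fitted. Of 16 listed neighbours of the chromosome 14 genes 3 were fitted, and 0 passed. Spcs1, a signal peptidase subunit, had -0.02, -0.07 and -0.08 at 18, 72 and 192 h, Sfmbt1 had -0.15, -0.02 and -0.18, and Nisch had 0.10, -0.19 and 0.28. Of 8 neighbours of Itih2 only Gata3 was fitted, at -0.06, -0.06 and 0.08.

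Genes of IL-6 and STAT3 signalling, which drive acute phase genes in hepatocytes, had 5 of 25 members fitted and 0 passed. Il6ra, the ligand-binding receptor chain, had 0.26 ± 0.13 (SE) at 18 h, with 3 of 4 pairs above 0, and -0.06 and -0.04 at 72 and 192 h. Its mean at 18 h was 0.13 without pair 3 and -0.04 in the deposited ratios. The transcription factors Cebpa, Cebpb and Hnf4a had -0.13, -0.19 and -0.28 at 18 h, with 0 pairs above 0 for each. In the deposited ratios their means at 18 h were -0.07, -0.16 and -0.04. Cebpa had -0.31 ± 0.11 at 72 h, also with 0 of 4 pairs above 0. Ptpn11, a phosphatase in cytokine signalling, stayed between -0.03 and 0.04. Of the 5 fitted members 2 were above 0 at 18 h and 0 at 192 h, against 49.0% and 45.2% of all fitted probes. At 192 h they lay between -0.07 and -0.0056, each closer to 0 than its SE. Il6, Il6st and Socs3 had a spot but were not fitted, and Stat3 and Jak1 had no named spot. The part of this pathway in the Itih3 ratios was not tested.

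Other positive acute phase genes were mixed in sign. Of 33 listed, 13 had a spot and 9 were fitted, with 0 passing in either direction at any time. Their median was 0.07, -0.08 and 0.09 at 18, 72 and 192 h, with 5, 4 and 6 of 9 above 0, against 49.0%, 39.0% and 45.2% of all fitted probes. Lrg1 and the fibrinogen alpha chain Fga were highest at 192 h, at 0.43 ± 0.25 and 0.41 ± 0.19 (SE), with 3 of 4 pairs above 0 for each. The Lrg1 mean at 192 h rests on pair 4, at 1.70, and is 0.00089 without it, and the Fga mean is 0.74 without pair 1. The haem-binding protein Hpx had 0.26, 0.25 and 0.09 at the 3 times, and its mean at 18 h is -0.0082 without pair 3. The pentraxin Crp was below 0 throughout, at -0.32, -0.18 and -0.21, with 0 of 4 pairs above 0 at 18 h. Cp, the copper oxidase ceruloplasmin, had -0.11, -0.29 and 0.15, and the serpin Serpina3n had 0.07, -0.39 and 0.03. The scan ratios of Itih3 at 18 and 192 h were above those of all 9. In the deposited table the mean at 192 h was 0.47 for Lrg1 and 0.43 for Fga (n = 4 each), against 0.15 for Itih3 (n = 3). Itih3 had no deposited value in pair 4, its highest pair from the scans and the pair on which the Lrg1 scan mean rests. These deposited means are thus over unlike sets of pairs, and none of these differences was tested.

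**Figure D3:**
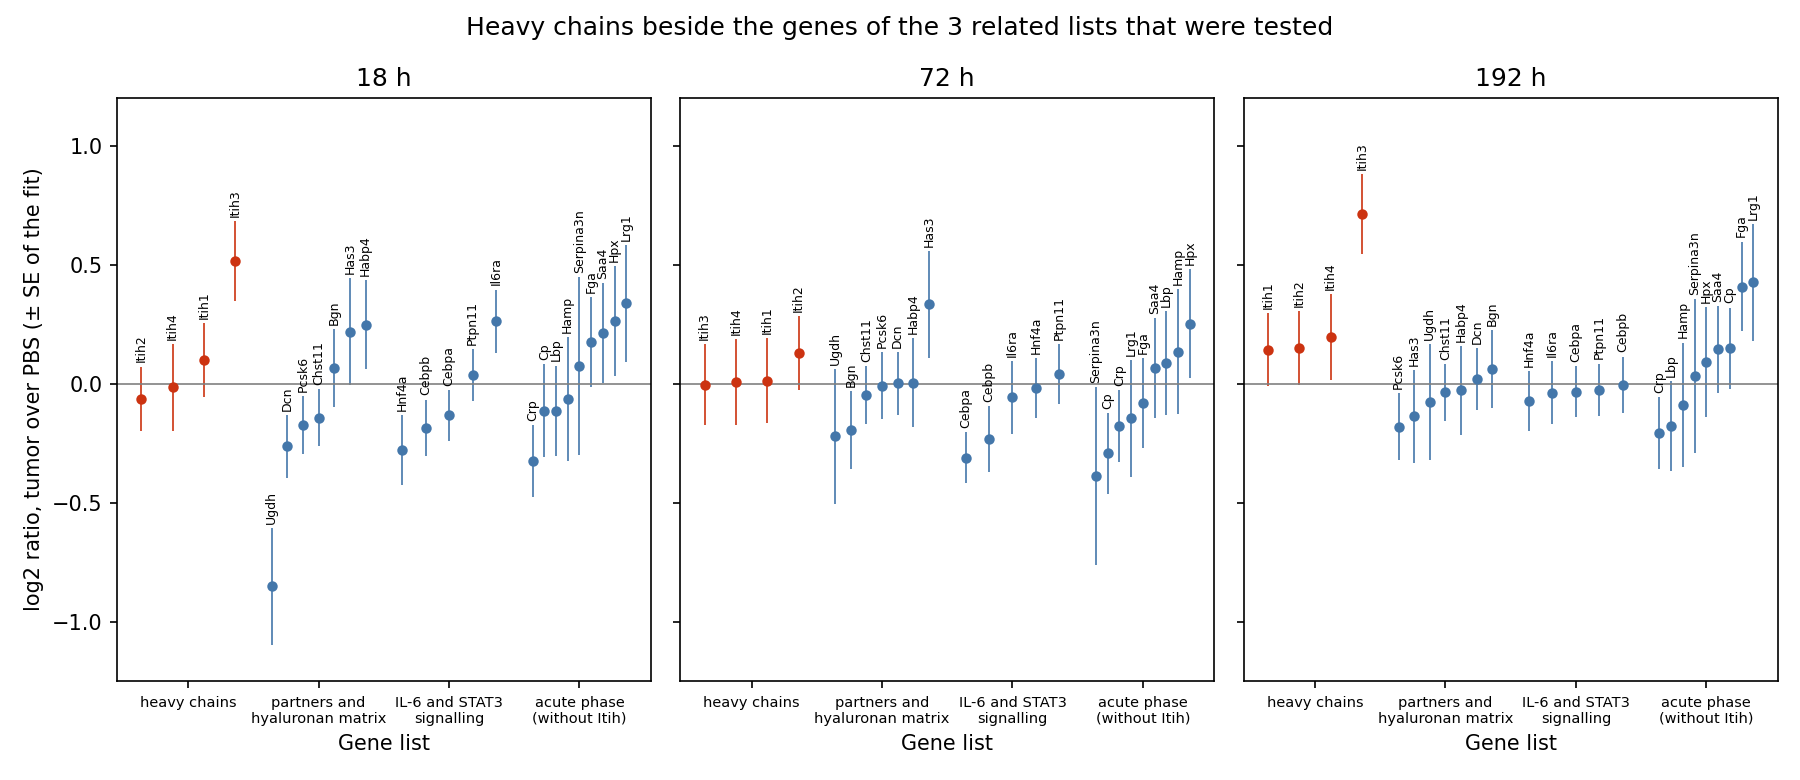
Mean log2 ratio of tumor over PBS liver with the SE of the fit, at 18, 72 and 192 h, for the heavy chains (red) and for the fitted genes of 3 related lists (blue), each ordered by its ratio. Itih3 stands at 0.52 and 0.71 at 18 and 192 h, above every other plotted gene, and Ugdh is the lowest at 18 h.

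Markers of liver cell types gave 0 passing genes in all lists. The 4 fitted hepatocyte markers of 15 listed had a median of -0.44, 0.03 and -0.10 at the 3 times, from -0.67 (Pck1) to 0.02 (Ahsg) at 18 h, when Itih3 was above 0. The 6 fitted Kupffer cell and macrophage markers of 15 listed were above 0 at 18 h, against 49.0% of all fitted probes. They lay between 0.04 and 0.26 with a median of 0.05, and had medians of 0.03 and 0.02 at 72 and 192 h. At 18 h Cd68, Marco, C1qa and C1qb each had 2 of 4 pairs above 0, Clec4f 3 of 4 and C1qc 3 of 3. The mean at 18 h was -0.15 for C1qa without pair 3 and -0.06 for Cd68 without pair 4. Of the endothelial markers 2 of 10 were fitted, with medians of 0.06, 0.07 and 0.08. The neutrophil marker S100a8 had 0.12, -0.03 and 0.32, and the stellate marker Dcn is given above. Lymphocyte and proliferating cell lists had 0 fitted genes, and the part of any of these cell types in the Itih3 ratios was not tested.

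**Figure D4:**
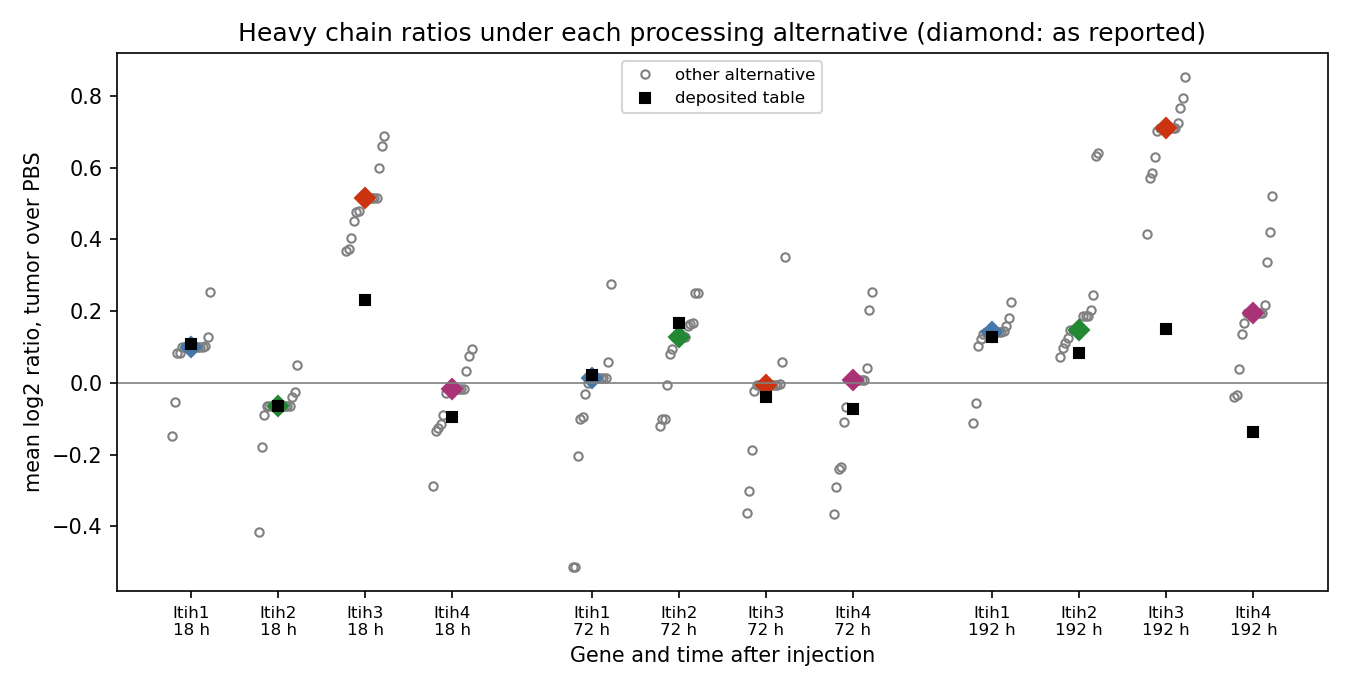
Mean log2 ratio of tumor over PBS liver for each heavy chain gene and time under the reported processing (diamonds), the deposited table (black squares) and the other alternatives that keep all or part of the pairs (open circles). Itih3 ranged from 0.23 to 0.69 at 18 h and from 0.15 to 0.85 at 192 h, and changed sign at 72 h.

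Of 17 alternatives, leaving out a pair aside, 7 could not move it (other filters, dye handling where both arrays are present, or another fit) and gave the same Itih3 mean at 18 and 192 h, and the other 10 left it above 0. It ran from 0.23 to 0.69 at 18 h and from 0.15 to 0.85 at 192 h, and the lowest value at both times was that of the deposited table. At 72 h it ran from -0.36 to 0.35. The means of the other members changed sign under 1 or more alternatives at each time, except that of Itih2 at 192 h, which ran from 0.07 to 0.64. Leaving out each pair in turn gave Itih3 means of 0.45 to 0.60 at 18 h and 0.57 to 0.80 at 192 h.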

How the data were processed

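Liver RNA was measured on 24 dual-colour arrays (12 pairs, dyes exchanged), each in 3 scans of rising brightness. Per the file headers, the deposited scan tables give spot intensity of channels A and B corrected for background, and a saturation factor, a fraction that is 1 where no pixel was saturated. The image software is not given in the sources used here. The deposited value table of the series holds the authors' log2 ratios, with scale, centring and direction unstated. They correlated with the ratios computed here at 0.51 to 0.84 per array once turned to tumor over PBS, their medians lay between -0.0334 and 0.00949 and they served as an alternative. Channel A was read as Cy3, which is not stated. Spots were tied to probe numbers by block order, which these correlations bear out.

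The platform annotation gave a single symbol for 9066 of 10080 spots, several for 12 and none for 1002. Symbols were updated by Entrez identifier (8977 matched) through RefSeq genes of GRCm38.p6. The files name no build.

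Each scan was normalized by loess (span 0.3). Ratios were averaged over unsaturated scans (or over the 3 scans if none was unsaturated) and over the exchanged arrays, which share their RNA and count as 1 replicate. A probe was kept with a total above 1.5 times background on 12 arrays and both orientations in 3 of 4 pairs at each time, which left 2062 probes for 1861 genes. Up to 8.15% of spots were saturated in the dimmest scan and 30.0% in the brightest.

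limma 3.58.1 (R 4.3.3) was fitted over all 12 pairs with a coefficient per time, and p-values were adjusted by Benjamini-Hochberg over all probes. The fit was tested on simulated data. PBS levels were compared by exact permutation tests.

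The members, lists, tests and named genes were chosen with earlier results of these data known. Named were all 4 members, the 5 genes most correlated with Itih3, all fitted partner genes, and from each other list up to 3 genes with the highest and up to 3 with the lowest mean ratio. Replicate numbers recur at each time, but deviations of same-numbered pairs correlated between -0.26 and 0.46 (12 comparisons), so the numbers were not taken to pair samples. The alternatives were the deposited ratios, normexp, median centring, print-tip loess, single scans, other filters, dye handling, each pair left out, parts of the pairs and a replicate block.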

Additional observations from a re-analysis of the deposited data

Results flagged for a closer look

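The Itih2 log2 ratio of pair 2 at 18 h was -0.52, far below the other 3 pairs of that time, which lay between 0.05 and 0.17. The gap to the nearest pair was 0.830 of the whole range of the 4 pairs, just past the critical value of 0.829 of Dixon's test. In the deposited table the same pair was the lowest too, at -0.46, but its gap was 0.40 of the range there, short of the critical value. Of groups of 4 pairs 12 were checked, and chance alone gives about 1 such value in 20 groups.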

How the results depend on the processing

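The Itih3 ratio at 18 h was 0.23 in the deposited table against 0.52, and at 192 h it was 0.15 in that table and 0.41 with print-tip loess against 0.71. There, both pairs with a saturated array have no value, and the cause of the lower values in the other pairs was not tested. With each pair left out in turn the Itih3 mean ran from 0.45 to 0.60 at 18 h, from -0.23 to 0.22 at 72 h and from 0.57 to 0.80 at 192 h. For the mean of the 3 times, the fit with the replicate block called 3 probes, Nfkbil1, Cers2 and Baat (adjusted p = 0.0454 each), against 0, and none of them is a heavy chain. The block changed no other call. Counts of called probes were 0 under the other alternatives in the 5 comparisons, of which only those at 18, 72 and 192 h could be run on each time alone. Removing the mean dye effect first gave identical ratios for pairs with both arrays, by construction, and each member had 1 probe, so that no choice between probes arose. Scaled to the same median, the smallest adjusted p of the exact permutation tests of PBS levels was 0.343 (smallest exact p = 0.0286), and on the 363 probes measured on every array, a choice made after seeing the data, it was 0.684, against 0.0623 as the smallest that these tests could give. Saturation at the bright end, background at the dim end and the few arrays limit every ratio.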
